A study of Mus musculus with 7 samples.

Results

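The SLC25 family comprises the carriers that move nucleotides, phosphate, amino acids, carboxylates, cofactors and metals across the inner mitochondrial membrane, together with the uncoupling proteins. Probe sets that the platform annotation assigns to exactly 1 gene with a symbol beginning Slc25a, or to Ucp1, Ucp2 or Ucp3, were taken, with the carnitine carrier Slc25a20 left out. This gave 66 of 22626 probe sets and 34 of 12393 genes, 19 of them with a single probe set and 15 with several. Ucp2, Slc25a12 and the other family members without such a probe set were not analysed here. Each gene was then followed on the probe set with the highest mean in wild-type hearts. Of the probe sets 41 were of the plain gene-specific type, 11 were of a type that reads several transcripts of 1 gene (_a_at), and 3 (_s_at) and 11 (_x_at) were of types that can bind transcripts of other genes.

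The arrays measured whole-heart RNA of C57/BL6 mice, 3 KLF15-null and 4 wild type (WT). Both groups were labelled as males of 3 to 4 months, and all 7 animals had been fasted for 18 h, so an effect of the fast itself was not measured. KLF15-null mice lack Krüppel-like factor 15, a transcription factor of heart, muscle and liver, and the labels describe no further allele or treatment. The labels do not say which part of the gene was deleted, whether littermates were used or whether RNA was pooled. The values are log2 signals, in which a difference of 1 is a 2-fold difference in signal.

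Most mitochondrial carriers share a fold of 6 membrane-spanning helices and exchange one solute for another. In heart muscle the adenine nucleotide and phosphate carriers supply ATP synthase and export its product, and the aspartate-glutamate and oxoglutarate-malate carriers form the membrane part of the malate-aspartate shuttle, which passes cytosolic NADH electrons to the respiratory chain. Uncoupling protein 3 is abundant in muscle mitochondria and rises with fatty acid supply and fasting.

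Klf15 itself had a log2 signal of 6.33 ± 0.17 in KLF15-null hearts (SD, n = 3) and 8.87 ± 0.19 in WT hearts (SD, n = 4), a difference of -2.54 (limma adjusted p = 1.26e-06, exact two-sided permutation p = 0.0286, the smallest that 35 splits of 7 arrays allow). Whether its single probe set reads the deleted part is not known here. Array medians lay between 6.22 and 6.23 in KLF15-null hearts and between 6.31 and 6.33 in WT hearts. Against the label of male mice, the brightest probe set of Xist lay at 8.57 or above on all 7 arrays, while those of the Y-linked genes Eif2s3y, Kdm5d and Uty lay at 5.15 or below. Xist itself was called lower in KLF15-null hearts, with a difference of -0.84 as deposited and -1.03 after quantile normalization. The heart label was borne out by 7 of 7 cardiomyocyte markers, Myh6 and Tnnt2 among them, none of which passed the test between the genotypes (mean log2 signal 13.47 to 13.60 in KLF15-null and 13.42 to 13.64 in WT hearts). After cyclic loess normalization 6 of these 7 were lower, after quantile normalization 2 were lower, and after median centring 3 were higher. The 98th percentile of an array's signals was 11.86 to 12.02 in KLF15-null and 11.43 to 11.74 in WT hearts. Of the 11 leukocyte and macrophage markers bright enough to test, 6 rose and 2 fell (mean log2 signal 7.91 to 8.24 in KLF15-null hearts, against 7.21 to 7.83 in WT hearts). Their part in the carrier results was not tested. In whole-heart RNA fewer cells of a type and less RNA per cell cannot be told apart.

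On the probe sets brightest in WT hearts, carriers were more often called lower than higher in KLF15-null hearts. Of the 34 genes 28 passed the brightness filter, a mean over the 7 arrays of at least log2 5.74. Of these, 11 were lower, 5 were higher and 12 did not pass the test (limma, Benjamini-Hochberg adjusted p under 0.05 over all 13576 probe sets kept). Lower calls made up 39.3% of the tested carriers, beside 21.2% of all 8400 genes tested on the same rule, and higher calls 17.9%, beside 25.3%. Together 57.1% of the carriers were called, beside 46.5% of all genes. The KLF15-null and WT values did not overlap for 19 of the 28 carriers, 67.9%, beside 49.4% of all genes, with KLF15-null lower for 14 (23.1% of all genes) and higher for 5 (26.2% of all genes). Counted by probe set, 16 of 54 tested were lower and 13 higher, beside 23.8% and 26.8% of all probe sets and 50.6% called in either direction. The median difference (KLF15-null minus WT, as in all differences given here) was -0.23 over the 28 carriers and 0.01 over all genes tested. These shares describe the family, and whether they set it apart was not tested. The counts were 8 higher and 10 lower after median centring of the arrays, beside 31.9% and 16.1% of all genes, and this scaling shifted the median of all kept probe sets to 0.09. They were 4 and 11 after quantile normalization (25.6% and 23.7% of all genes) and 4 and 14 after cyclic loess normalization (24.4% and 25.0%). Leaving out WT replicate 3 gave 8 higher and 12 lower calls. All 4 carriers called with a difference of at least 1 in size were lower, namely Slc25a13, Slc25a11, Ucp3 and Slc25a46. Of all genes tested 4.20% were called lower and 5.94% higher by that much.

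**Figure D1:**
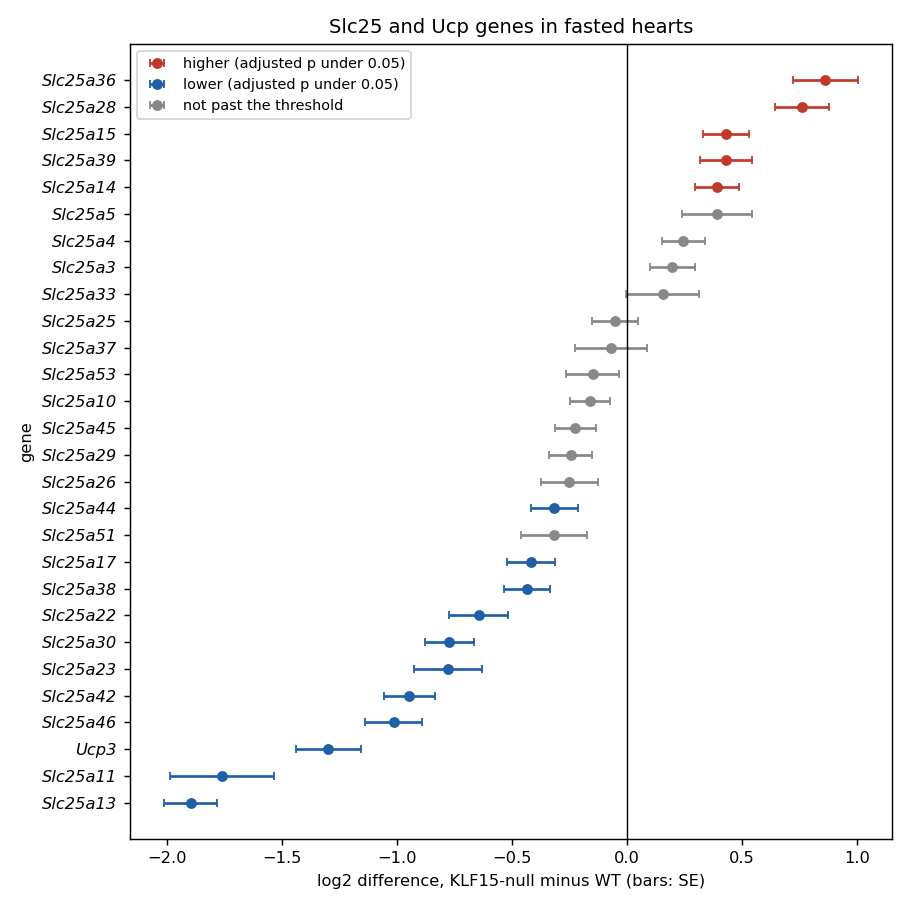
Log2 difference (KLF15-null minus WT, x axis) of the 28 tested carrier genes, each on the probe set brightest in WT hearts. Points are limma estimates from 3 KLF15-null and 4 WT arrays, bars are their SE, and colours give the call. The 11 lower genes reach -1.90 (Slc25a13) and the 5 higher genes 0.86 (Slc25a36).

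Both carriers of the malate-aspartate shuttle that were measured fell, while its other aspartate-glutamate carrier, Slc25a12, was not among the genes analysed here. Slc25a13 (chromosome 6, 6041218 to 6217304, GRCm38.p6) codes for citrin, an aspartate-glutamate carrier regulated by calcium. It had log2 signals of 7.19, 7.27 and 7.55 in KLF15-null hearts, against 9.15, 9.17, 9.27 and 9.34 in WT hearts. The groups did not overlap, and the lowest WT heart lay far above the highest KLF15-null heart. The difference was -1.90 (SE 0.11, limma adjusted p = 2.62e-06), so that the signal was 3.72-fold lower. Slc25a11 (chromosome 11, 70644019 to 70647531, GRCm38.p6), the oxoglutarate-malate carrier, had 9.77, 8.69 and 9.53 in KLF15-null hearts, against 11.02, 11.01, 11.28 and 11.05 in WT hearts. KLF15-null replicate 2 was the lowest, and the KLF15-null hearts spread more widely (SD 0.57, n = 3) than the WT hearts (SD 0.13, n = 4). The difference was -1.76 (SE 0.23, limma adjusted p = 0.000170), a 3.39-fold lower signal, and ranged from -1.98 to -1.44 with each array left out in turn. The other dicarboxylate carrier tested, Slc25a10, differed by -0.16 on its brighter probe set, not past the threshold (limma adjusted p = 0.160), and by -0.23 on the other (limma adjusted p = 0.0450). That call was lost with no filter (limma adjusted p = 0.0679), after each of the 3 scalings (0.115 to 0.204) and with the replicate block (0.163).

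The promoters of the carriers with the largest differences in either direction are shown because Krüppel-like factors are known to bind CACCC boxes and GC-rich sites. Each sequence runs from 250 bases before to 50 after the RefSeq start site on the gene's own strand (GRCm38.p6), and capitals mark CACCC or its reverse complement GGGTG. The first 3 genes were lower and the last 2 higher in KLF15-null hearts.
Slc25a13, chr6:6217124-6217423, minus strand: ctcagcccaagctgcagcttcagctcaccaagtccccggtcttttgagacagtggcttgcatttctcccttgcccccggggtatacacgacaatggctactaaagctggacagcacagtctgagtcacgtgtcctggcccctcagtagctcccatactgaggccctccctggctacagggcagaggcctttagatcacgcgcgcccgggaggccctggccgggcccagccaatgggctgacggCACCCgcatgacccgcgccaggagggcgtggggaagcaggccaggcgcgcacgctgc
Slc25a11, chr11:70646990-70647289, minus strand: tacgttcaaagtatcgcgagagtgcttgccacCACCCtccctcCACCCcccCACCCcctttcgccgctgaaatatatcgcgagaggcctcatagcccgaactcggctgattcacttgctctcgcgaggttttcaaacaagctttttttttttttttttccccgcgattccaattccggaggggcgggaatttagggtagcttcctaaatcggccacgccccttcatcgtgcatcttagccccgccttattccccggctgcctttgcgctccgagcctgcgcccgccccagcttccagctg
Ucp3, chr7:100472741-100473040, plus strand: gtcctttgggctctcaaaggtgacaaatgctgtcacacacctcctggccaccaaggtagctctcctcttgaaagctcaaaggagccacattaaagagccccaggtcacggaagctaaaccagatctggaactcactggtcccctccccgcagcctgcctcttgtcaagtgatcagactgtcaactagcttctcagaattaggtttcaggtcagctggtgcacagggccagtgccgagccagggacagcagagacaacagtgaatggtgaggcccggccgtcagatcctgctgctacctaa
Slc25a36, chr9:97110992-97111291, minus strand: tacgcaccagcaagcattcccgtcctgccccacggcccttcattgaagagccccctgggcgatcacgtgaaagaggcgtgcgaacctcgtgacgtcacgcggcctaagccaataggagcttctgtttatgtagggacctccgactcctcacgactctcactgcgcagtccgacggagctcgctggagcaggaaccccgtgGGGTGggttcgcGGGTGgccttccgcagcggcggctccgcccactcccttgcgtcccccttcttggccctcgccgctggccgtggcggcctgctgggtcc
Slc25a28, chr19:43674832-43675131, minus strand: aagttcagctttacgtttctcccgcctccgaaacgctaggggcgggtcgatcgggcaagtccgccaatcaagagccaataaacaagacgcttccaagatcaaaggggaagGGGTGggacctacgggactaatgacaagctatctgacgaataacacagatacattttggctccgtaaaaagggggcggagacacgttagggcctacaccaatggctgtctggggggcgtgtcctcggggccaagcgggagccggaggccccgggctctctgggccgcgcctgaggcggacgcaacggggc

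Slc25a11 held 3 CACCC matches, Slc25a13 held 1 and Ucp3 held 0, against 2 in Slc25a36 and 1 in Slc25a28, so the letters occurred in genes of both directions. On both strands CACCC occurred in 22 of 36 promoters of the 27 carrier genes with an entry (61.1%), beside 57.5% of all 32817 promoters. The GC box GGGCGG, whose matches can overlap a CACCC match, occurred in 31 of the 36 (86.1%), beside 35.6% of all. The set of all promoters was not matched to the carriers for GC content. Of the genes shown, Slc25a11 held 2 GC boxes and Slc25a13 and Ucp3 held 0, against 1 in Slc25a36 and 2 in Slc25a28. The element TNAAGGTCA of estrogen-related receptors occurred in 0 of the 36, beside 1.28% of all. Several of the 36 are overlapping windows of 1 gene, and a match of letters is not a binding site.

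Of the 6 amino acid carriers tested, 4 were lower, 1 was higher and 1 did not pass the test, beside 21.2% lower and 25.3% higher among all genes. Beside Slc25a13, the mitochondrial glutamate carrier Slc25a22 had 8.51 ± 0.12 in KLF15-null hearts and 9.15 ± 0.19 in WT hearts, a difference of -0.64 (limma adjusted p = 0.00229). The glycine carrier Slc25a38, which feeds heme synthesis, fell by 0.43 on the log2 scale, with 7.43 ± 0.009 in KLF15-null and 7.86 ± 0.14 in WT hearts (limma adjusted p = 0.00549). Slc25a44, a carrier of branched-chain amino acids, had 7.37, 7.25 and 7.13 in KLF15-null hearts, against 7.63, 7.62, 7.39 and 7.63 in WT hearts. The groups nearly met, and the call (difference -0.31, limma adjusted p = 0.0275) was lost without KLF15-null replicate 3 and without WT replicate 1, 2 or 4, with adjusted p up to 0.0982. Its middle probe set differed by -0.20 (limma adjusted p = 0.0502), and its dimmest one, below the filter, by -0.56.
The exception among the amino acid carriers was Slc25a15, the ornithine carrier of the urea cycle and of ornithine breakdown, which had 7.15, 7.10 and 7.20 in KLF15-null hearts, against 6.75, 6.75, 6.87 and 6.50 in WT hearts. All 3 KLF15-null hearts lay above all WT hearts, by a difference of 0.43 (SE 0.10, limma adjusted p = 0.00556). Its second probe set, too dim to test, ran the other way without overlap, with means of 4.89 in KLF15-null and 5.04 in WT hearts (difference -0.14). Slc25a29, a carrier of basic amino acids with 5 probe sets, differed by -0.24 on the brightest (limma adjusted p = 0.0516) and by -0.34 to -0.11 on the other 4, of which 1 was called lower, though not after quantile normalization or median centring.

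The enzymes that work on either side of these carriers were counted from a list of 26, of which 22 were tested. Among them 6 fell and 3 rose, beside 21.2% and 25.3% of all genes, while 13 missed the threshold, with a median difference of -0.23. Got1, the cytosolic aspartate aminotransferase of the malate-aspartate shuttle, had 11.29, 9.62 and 10.84 in KLF15-null hearts, against 12.27, 12.33, 12.48 and 12.10 in WT hearts. KLF15-null replicate 2 was the lowest for Got1, as it was for Slc25a11. It was also the lowest for genes outside the shuttle, Glud1 and Nnt of the same list among them, but not for Slc25a13. The difference was -1.72 (SE 0.32, limma adjusted p = 0.00168). The shuttle enzymes Got2 and Mdh1 differed by 0.03 and -0.08, not past the threshold, and Mdh2 rose by 0.37 (limma adjusted p = 0.0121, and 0.0503 with the replicate block). Bcat2, the mitochondrial branched-chain aminotransferase, fell by 1.41, Prodh (proline dehydrogenase) by 0.89 and Oat (ornithine aminotransferase) by 0.82 on the log2 scale. These counts also moved with scaling. After quantile normalization 13 of the 22 were lower and 0 higher (23.7% and 25.6% of all genes), and after cyclic loess normalization 14 and 0 (25.0% and 24.4% of all genes). Got2 was then lower, by -0.33 and -0.38, and so was Mdh1, by -0.30 and -0.55, while Mdh2 was no longer called.

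The 2 most abundant carrier activities of the heart, adenine nucleotide exchange and phosphate import, showed small positive differences that did not pass the test on the brightest probe sets. Slc25a4, the heart and muscle isoform of the adenine nucleotide translocase, had 13.93, 13.80 and 13.99 in KLF15-null hearts, against 13.60, 13.65, 13.80 and 13.60 in WT hearts. WT replicate 3 reached the lowest KLF15-null heart, and the difference was 0.25 (SE 0.09, limma adjusted p = 0.0502). A second bright probe set of Slc25a4 differed by 0.18, not past the threshold, while 2 dimmer ones, at 10.68 and 5.62 in WT hearts, were higher by 0.87 and 0.88. The WT mean of the dimmest lay below the filter level, so background may limit its difference. Slc25a3, the phosphate carrier, had 13.59, 13.45 and 13.61 in KLF15-null hearts, against 13.29, 13.31, 13.53 and 13.27 in WT hearts. The groups overlapped through WT replicate 3 (difference 0.20, SE 0.10, limma adjusted p = 0.123).
On their brightest probe sets both genes turned direction with array scaling. After cyclic loess normalization Slc25a4 stood at -0.26 (limma adjusted p = 0.00630) and Slc25a3 at -0.28 (limma adjusted p = 0.00232). After median centring they stood at 0.34 and 0.29, all 4 values past the threshold. The dimmer probe sets of Slc25a4 did not turn. After cyclic loess normalization they were higher by 0.57 and 0.93 (limma adjusted p = 0.00334 and 0.00148), and the second bright one was lower, at -0.31. Probe sets of Slc25a4 were then called in opposite directions.
Slc25a5, the widely expressed isoform of the translocase, had 8 probe sets, of which 3 were higher and 5 not past the threshold, with 6 of the 8 of the cross-hybridizing _x_at type. The brightest had 11.98, 11.61 and 11.98 in KLF15-null hearts, against 11.25, 11.38, 11.78 and 11.45 in WT hearts, with overlapping groups (difference 0.39, limma adjusted p = 0.0566). The direction of this probe set turned with scaling, at -0.03 after quantile, 0.05 after cyclic loess and 0.48 after median centring. It was called higher only after the last (limma adjusted p = 0.0266). The 2 dimmest, at 8.17 and 7.53 in WT hearts, were higher by 1.21 and 1.17 (limma adjusted p = 7.18e-05 and 3.53e-05). The other called probe set, at 11.37 in WT hearts, was higher by 0.61 without overlap (limma adjusted p = 0.00207). After quantile normalization it was not called (0.19, limma adjusted p = 0.0639). A further bright one was then lower, by -0.26 (limma adjusted p = 0.0242), while the 2 dimmest stayed higher. Probe sets of Slc25a5 were thus called in opposite directions under that scaling.
Slc25a17, the peroxisomal carrier of CoA, NAD and related nucleotides, was the only member of this group called on its brightest probe set, at 5.94 ± 0.18 in KLF15-null and 6.35 ± 0.11 in WT hearts. Its difference of -0.42 (limma adjusted p = 0.00861) was close to the dim end of the filter, and its other probe set differed by -0.13, not past the threshold.

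**Figure D2:**
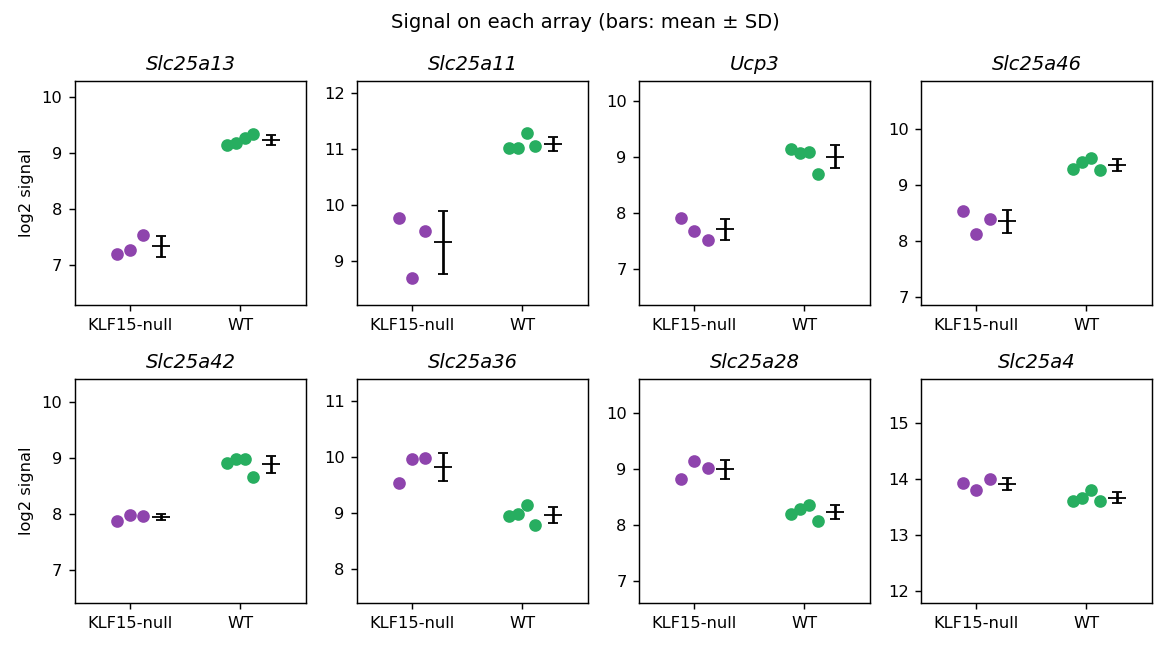
Log2 signal (y axis, the same span in every panel) of 8 carrier genes on each of the 3 KLF15-null and 4 WT arrays, with mean ± SD beside the points. Slc25a13, Slc25a11, Ucp3, Slc25a46 and Slc25a42 are lower and Slc25a36 and Slc25a28 higher in KLF15-null hearts without overlap, while Slc25a4 overlaps.

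Among carriers of ATP-magnesium, coenzymes and pyrimidine nucleotides the differences ran both ways. Slc25a23, a calcium-regulated ATP-magnesium/phosphate carrier, fell by 0.78 on the log2 scale, with 6.24 ± 0.26 in KLF15-null and 7.01 ± 0.22 in WT hearts (limma adjusted p = 0.00174). Its relative Slc25a25, the brighter of this pair, had 7.62, 7.80 and 7.59 in KLF15-null hearts, against 7.68, 7.66, 7.68 and 7.88 in WT hearts, and the groups overlapped in part, with KLF15-null replicates 1 and 3 below every WT heart (difference -0.05, limma adjusted p = 0.695).
Slc25a42, which imports coenzyme A, had 7.88, 7.98 and 7.97 in KLF15-null hearts, against 8.92, 8.98, 8.99 and 8.67 in WT hearts. The KLF15-null hearts lay close together and well below every WT heart, with a difference of -0.95 (SE 0.11, limma adjusted p = 9.11e-05), a 1.93-fold lower signal.
Slc25a36, a pyrimidine nucleotide carrier, had 9.53, 9.95 and 9.98 in KLF15-null hearts, against 8.94, 8.98, 9.14 and 8.78 in WT hearts. It had the largest rise of any carrier on its brightest probe set, 0.86 (SE 0.14, limma adjusted p = 0.000739), or 1.82-fold, without overlap. Its only gene-specific probe set was dim, at 5.92 ± 0.36 in KLF15-null and 5.78 ± 0.16 in WT hearts, and differed by 0.14, not past the threshold. The other pyrimidine nucleotide carrier, Slc25a33, had 8.22 ± 0.13 in KLF15-null and 8.06 ± 0.30 in WT hearts, a difference of 0.16 that did not pass (limma adjusted p = 0.444).
Slc25a26, the S-adenosylmethionine carrier, differed by -0.25 on its brighter probe set (limma adjusted p = 0.118) and by -0.38 on the other (limma adjusted p = 0.0119).
Slc25a51, the NAD carrier and the brightest of this group in WT hearts, had 9.11, 8.66 and 8.97 in KLF15-null hearts, against 9.26, 9.09, 9.47 and 9.11 in WT hearts. The groups overlapped, and the difference of -0.32 did not pass (limma adjusted p = 0.0912), although it did after quantile (-0.44) and cyclic loess normalization (-0.45). A second probe set of Slc25a51 was higher, by 0.35 (limma adjusted p = 0.0237), and remained so under both normalizations, so that its probe sets were then called in opposite directions. With the replicate block the second was not called (limma adjusted p = 0.0919).

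Of the 3 iron and glutathione carriers, 2 were higher, beside 25.3% of all genes, and 1 did not pass the test. Of the 2, Slc25a39 lost its call after quantile and cyclic loess normalization. Slc25a28, mitoferrin 2, which imports iron in cells outside the erythroid lineage, had 8.81, 9.15 and 9.01 in KLF15-null hearts, against 8.20, 8.29, 8.35 and 8.08 in WT hearts. The groups did not overlap, and the difference of 0.76 (SE 0.12, limma adjusted p = 0.000505) was a 1.69-fold rise. Slc25a37, mitoferrin 1 of red cell precursors, had 8.11, 8.18 and 8.03 in KLF15-null hearts, against 8.38, 7.75, 8.18 and 8.40 in WT hearts, with no separation (difference -0.07, limma adjusted p = 0.731). Slc25a39, the mitochondrial glutathione carrier, had 12.30, 12.32 and 12.24 in KLF15-null hearts, against 11.85, 11.83, 12.07 and 11.67 in WT hearts. This difference of 0.43 (SE 0.11, limma adjusted p = 0.00984) came from an _x_at probe set. It was 0.03 after quantile and 0.06 after cyclic loess normalization. With the replicate number as a block the adjusted p was 0.0573. A second _x_at probe set gave 0.35, likewise not called after either normalization, while the remaining probe set, of the _a_at type, differed by -0.49, with 9.02, 8.23 and 8.90 in KLF15-null hearts against 9.13, 9.18, 9.43 and 9.09 in WT hearts. It missed the threshold as deposited (limma adjusted p = 0.0523) and was lower after quantile (-0.59) and cyclic loess normalization (-0.61), so the direction of Slc25a39 depended on the probe set. Of 6 erythroid markers 3 were bright enough to test, Alas2 among them, and 0 of these passed (limma, mean log2 signal of the list 5.83 to 5.94 in KLF15-null and 5.58 to 6.20 in WT hearts).

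Ucp3 fell on both of its probe sets. On the brighter it had 7.91, 7.68 and 7.52 in KLF15-null hearts, against 9.15, 9.08, 9.09 and 8.69 in WT hearts, and on the other 6.72, 6.35 and 6.78, against 8.27, 8.32, 8.12 and 7.97. The highest KLF15-null heart lay below the lowest WT heart on each. The differences were -1.30 (SE 0.14, limma adjusted p = 6.41e-05), a 2.46-fold lower signal, and -1.56 (SE 0.13, limma adjusted p = 1.58e-05). Of the 5 skeletal muscle markers with a probe set 1 was bright enough to test and did not pass, and the list averaged a log2 signal of 5.02 to 5.67 in KLF15-null and 5.05 to 5.14 in WT hearts. Slc25a30, a relative of the uncoupling proteins known as kidney mitochondrial carrier protein, fell by 0.77 on its brightest probe set (limma adjusted p = 0.000264) and by 0.83 on the next (limma adjusted p = 0.00194), with 7.19 ± 0.12 in KLF15-null and 7.96 ± 0.13 in WT hearts on the first. Its other 3 probe sets differed by -0.24 (_s_at, limma adjusted p = 0.126), -0.12 and 0.02, and the last 2 were too dim to test. Slc25a14, another relative, was higher, with 6.53 ± 0.18 in KLF15-null and 6.14 ± 0.05 in WT hearts (difference 0.39, limma adjusted p = 0.00727). Ucp1, the uncoupling protein of brown fat, lay at 4.43 to 4.54 in KLF15-null and 4.35 to 4.59 in WT hearts, at the 15.5th percentile of the WT means, and was too dim to test. Of the 6 adipocyte markers (mean log2 signal 5.45 to 5.63 in KLF15-null and 5.68 to 5.72 in WT hearts) Adipoq, Cidec, Lep and Elovl3 were also below the filter. Cidea, which heart muscle can also express, fell by 0.98 on the log2 scale, while Retn differed by 0.06, not past the threshold (limma adjusted p = 0.587).

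Slc25a46, an outer-membrane member of the family that takes part in mitochondrial fission and lipid transfer rather than solute exchange, was the only carrier with probe sets called in opposite directions on the deposited values. On the probe set brightest in WT it had 8.53, 8.12 and 8.39 in KLF15-null hearts, against 9.29, 9.42, 9.48 and 9.26 in WT hearts, a difference of -1.01 (SE 0.12, limma adjusted p = 0.000126). On the other it had 9.59, 9.67 and 9.78 in KLF15-null hearts, against 9.22, 9.14, 9.34 and 9.09 in WT hearts, a difference of 0.48 (SE 0.11, limma adjusted p = 0.00469). Neither pair of groups overlapped, and both calls remained after quantile and cyclic loess normalization and after median centring. In WT hearts the probe sets lay close together, at 9.36 ± 0.10 and 9.20 ± 0.11, and in KLF15-null hearts apart, at 8.35 ± 0.21 and 9.68 ± 0.09. Both are of the gene-specific type, and which transcript each one reads was not tested. Opposite calls were found in 1 of 13 carriers with several tested probe sets, beside 21.0% of all 2748 such genes.

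**Figure D3:**
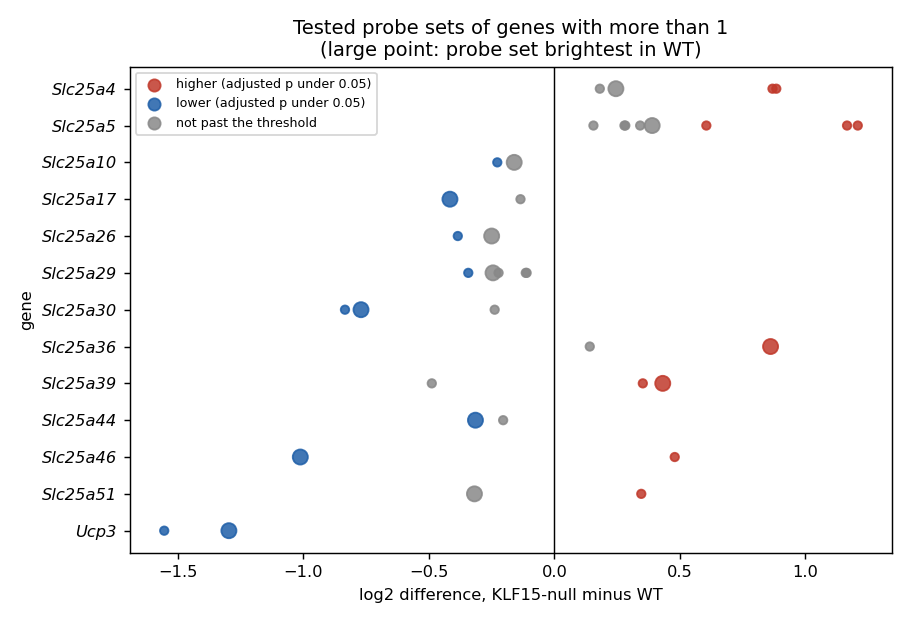
Log2 difference (KLF15-null minus WT, x axis) of each tested probe set of the 13 carriers with more than 1. The large point is the probe set brightest in WT hearts, and colours give the call. Slc25a46 has probe sets called at -1.01 and 0.48, and both Ucp3 probe sets are lower. The dimmer probe sets of Slc25a4 and the dimmest of Slc25a5 lie above the brighter ones of the same gene.

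The remaining tested carriers, Slc25a45 and Slc25a53, are of little known substrate. Slc25a45 had 7.10, 7.16 and 7.16 in KLF15-null hearts, against 7.35, 7.39, 7.23 and 7.49 in WT hearts. Its groups did not overlap, but the difference of -0.23 did not pass (limma adjusted p = 0.0595). Slc25a53 differed by -0.15 (limma adjusted p = 0.312). The carriers below the filter, beside Ucp1, were the ornithine carrier Slc25a2 (4.21 in KLF15-null and 4.19 in WT hearts), Slc25a24 (3.97 and 4.19), Slc25a35 (5.33 and 5.48), Slc25a47 (5.37 and 5.43) and Slc25a48 (5.71 and 5.75). With no filter 0 of these 6 passed by limma, and 1 further dim probe set, of Slc25a44, was lower.

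Other transport proteins of the mitochondrial membranes were counted from a list of 25, of which 17 were tested. Of these 5 were lower and 1 was higher, beside 21.2% and 25.3% of all genes, and 11 did not pass, with a median difference of -0.02. The inner-membrane ABC transporters Abcb8 and Abcb10 fell by 0.77 and 0.36 on the log2 scale, and Slc8b1, the mitochondrial sodium-calcium exchanger, by 0.31, a call lost after quantile normalization (limma adjusted p = 0.0621), after median centring (0.0677) and with the replicate block (0.0601). Sfxn3 (sideroflexin 3), a serine carrier, rose by 0.72. Mtch2, named after its value was seen, had the largest fall of the list, 0.85 on the log2 scale (limma adjusted p = 0.0213). KLF15-null replicate 2 was its lowest heart, at 8.49. Mtch2 stayed lower after quantile and cyclic loess normalization, after median centring and with the replicate block (limma adjusted p = 0.0366). Mpc1, a subunit of the pyruvate carrier named after its value was seen, had 11.73, 11.22 and 11.68 in KLF15-null hearts, against 11.84, 11.81, 12.20 and 11.92 in WT hearts. Its groups did not overlap but lay close, and the difference of -0.41 barely passed (limma adjusted p = 0.0499). The call was lost with no filter (limma adjusted p = 0.0688), after median centring (0.120) and with the replicate block (0.0588), and the difference was -0.80 after quantile and -0.76 after cyclic loess normalization. Of the 17 genes 7 were lower and 1 higher after quantile normalization, beside 23.7% and 25.6% of all genes. After cyclic loess normalization 9 were lower and 1 higher, beside 25.0% and 24.4%. After median centring, where their median was 0.07, 3 were lower and 3 higher, beside 16.1% and 31.9%.

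The brightness of a probe set moved with the difference. Over all 601 tested probe sets with a WT mean of log2 11 to 13 the median difference was 0.27, and over the 70 at 13 or above it was 0.11, against -0.05 over the 5829 between 7 and 9. This pattern turned with scaling: the median of the class from 11 to 13 was -0.11 after quantile and -0.10 after cyclic loess normalization, and that of the class from 9 to 11, 0.06 as deposited, was -0.16 and -0.14. The 6 carrier probe sets between 11 and 13 had a median of 0.33 and the 3 above 13 a median of 0.20. In the first of these classes Slc25a5 and Slc25a39 differed by 0.39 and 0.43, and in the other Slc25a3 and Slc25a4 by 0.20 and 0.25, and the part of brightness in these values was not tested. Slc25a11, at 11.09 in WT hearts, differed by -1.76 in a brightness class whose median was positive on the deposited values. The 10 carrier probe sets between 9 and 11 had a median of -0.40, beside 0.06 over all 2166 of that brightness.

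**Figure D4:**
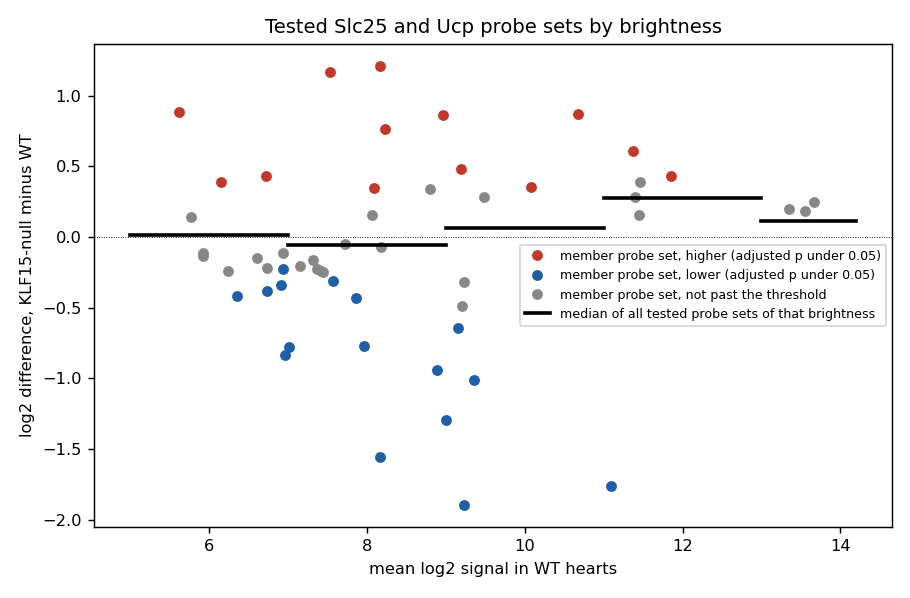
Log2 difference (KLF15-null minus WT, y axis) of the 54 tested carrier probe sets against their mean log2 signal in WT hearts (x axis), coloured by call. Black lines are the medians over all tested probe sets of the same brightness, 0.27 between 11 and 13, where the 6 carrier probe sets have a median of 0.33.

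Scaling between arrays left the calls of most carriers as they were. Under quantile normalization, cyclic loess normalization and median centring alike, 10 of the 11 lower and 4 of the 5 higher carriers kept their call, the exceptions being Slc25a44 and Slc25a39. Of the 12 carriers not past the threshold 8 stayed so, and the other 4 were Slc25a3, Slc25a4, Slc25a5 and Slc25a51.

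**Figure D5:**
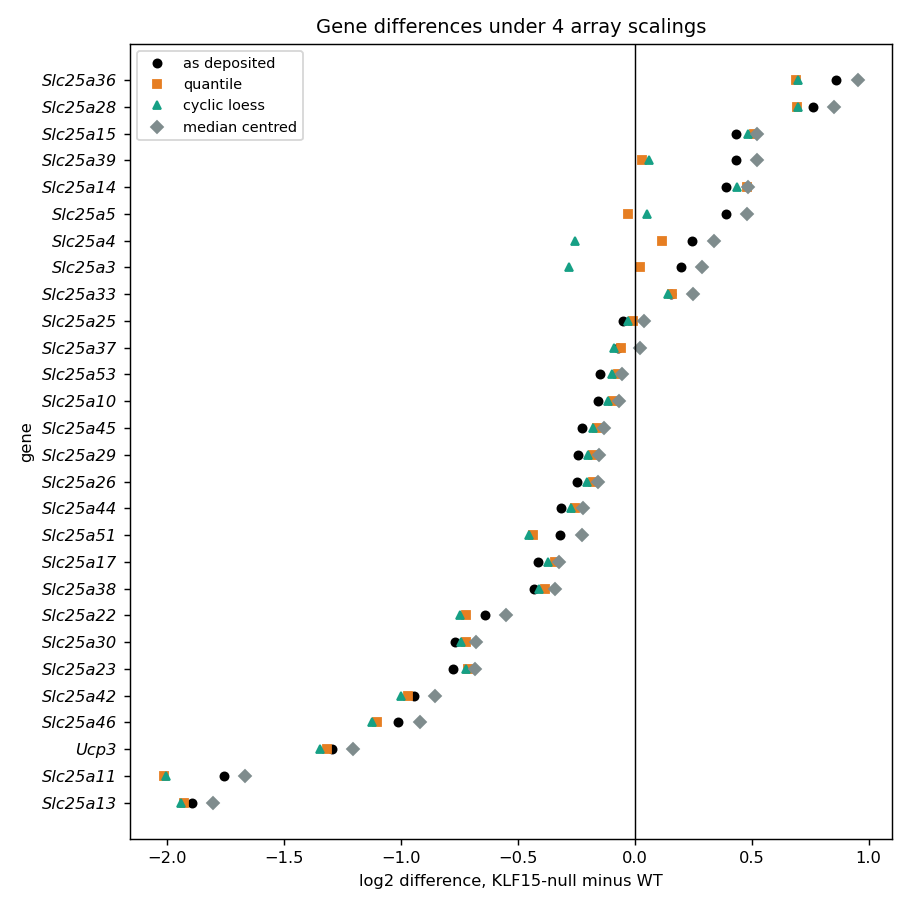
Log2 difference (KLF15-null minus WT, x axis) of the 28 tested carriers on the deposited values and after quantile normalization, cyclic loess normalization and median centring. Slc25a13 lies between -1.94 and -1.80 under all 4 scalings, while Slc25a3 and Slc25a4 cross 0.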

How the data were processed

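Per the labels' protocols, Trizol RNA of 3 KLF15-null and 4 WT hearts was hybridised after one-cycle labelling. Each probe set has 1 deposited log2 signal per array; this unit was taken from the range of the values. GCOS is named, without version or role, in the submitters' processing notes, and the sources used here do not give how probes were summarized or arrays scaled. In 36.4% of the 66 carrier probe sets at least 2 arrays hold exactly the same value, as in 47.3% of all 22626. The deposited values hold no detection calls, so dim probe sets cannot be told from background, and the number of arrays limits the precision.

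Symbols came from the platform annotation, and all 66 Entrez numbers were found among RefSeq genes of GRCm38.p6 with 0 symbols updated. No scaling was added, because array medians lay within the limit of 0.15 set for this, although the 98th percentiles of the genotypes did not overlap (11.86 to 12.02 in KLF15-null and 11.43 to 11.74 in WT arrays). Probe sets whose 7-array mean reached log2 5.74, the 40th percentile, entered the fit by limma 3.58.1 in R 4.3.3, without covariates, with an intensity trend, two-sided, and with Benjamini-Hochberg adjustment over all 13576. The fit was tested on simulated data. Promoters were taken from RefSeq (GRCm38.p6). Values on all 7 arrays are given for called carriers differing by 1 or more, for the brightest carrier of each role group, for genes with opposite probe sets and for some others chosen after their values were seen. Members, role groups and lists were chosen with earlier results of these data known. Labels do not state whether RNA was pooled, so p-values measure the spread between these arrays. Same-numbered KLF15-null and WT arrays deviated from their group means with correlations of -0.14, -0.02 and 0.19 and were not taken as pairs. Alternatives were other filters, scalings, variance models, array weights, a replicate block, each array left out and other probe sets per gene. Leaving out _x_at and _s_at probe sets, and leaving out genes with opposite probe sets, were chosen after seeing the data. Role lists hold 50 genes, 34 with a probe set analysed here. Endothelial markers had 1 of 4 lower and fibroblast markers 1 of 4 lower and 1 higher.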

Additional observations from a re-analysis of the deposited data

Results flagged for a closer look

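In 12 of the 66 carrier probe sets 1 of the 4 WT hearts stood apart from the other 3 by more than Dixon's 95% limit for the gap over the group's range. The limit flags about 1 in 20 groups of independent, normally spread values. Some of the flagged groups hold exactly equal values, which can raise the gap over the range, and probe sets on 1 array are not independent. The flagged share of all probe sets was not computed, so an excess over chance cannot be read from this count. WT replicate 3 was the highest for Slc25a11 at 11.28 (the others at 11.01 to 11.05), for Slc25a3 at 13.53 (13.27 to 13.31) and for the dim Slc25a24 at 4.43 (4.10 to 4.12). It was the lowest for Slc25a44 at 7.39 (7.62 to 7.63) and for the brightest probe set of Slc25a29 at 7.32 (7.45 to 7.47). WT replicate 4 was the lowest for Ucp3 at 8.69 (9.08 to 9.15), for the dimmest probe set of Slc25a4 at 5.17 (5.73 to 5.82) and for a dim one of Slc25a30 at 4.07 (4.15 to 4.17). It was the highest for Slc25a25 at 7.88 (7.66 to 7.68). WT replicate 2 was the highest for an _a_at probe set of Slc25a29 at 6.23 (5.81 to 5.83) and for the _s_at probe set of Slc25a30 at 6.57 (6.10 to 6.18). WT replicate 1 was the highest for the dimmer probe set of Slc25a17 at 6.13 (5.84 to 5.88).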

How the results depend on the processing

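Higher carriers numbered 5 and lower carriers 11 on the deposited values. With array weights they numbered 8 and 13, after median centring 8 and 10, and with each array left out in turn 5 to 8 and 10 to 12, the 8 coming without WT replicate 3. Every other alternative for these counts lay within 1.5 times of them, from 4 to 7 higher and from 9 to 14 lower. With the replicate number as a block, WT replicate 4 has no same-numbered partner, so each difference equals the one without that array. Less information is then left to estimate the spread. In that fit 4 were higher and 9 lower, and Slc25a17, Slc25a39 and Slc25a44 lost their calls (limma adjusted p = 0.0572, 0.0573 and 0.0688). What part the smaller fit had in these losses was not tested. The median difference of the tested carriers, -0.23, was -0.15 with no filter, which adds 6 dim genes, and -0.17 after quantile normalization. It was -0.14 after median centring, -0.21 with array weights and with the replicate block, and -0.24 to -0.17 with each array left out. It was -0.19 with the probe set brightest over the 7 arrays and with gene-specific probe sets preferred, -0.20 with the mean of the kept probe sets and -0.27 without _x_at and _s_at probe sets. The direction reversed after cyclic loess normalization for Slc25a3 (-0.28) and Slc25a4 (-0.26). It also reversed for Slc25a46 with the probe set brightest over the 7 arrays (0.48) and for Slc25a39 without _x_at and _s_at probe sets (-0.49). Slc25a36 lost its call with its gene-specific probe set, at 0.14. Of the other membrane transport genes 6 were called as deposited and 10 after cyclic loess normalization, and of the shuttle partner enzymes 9 and 14. Klf15 kept its call throughout, between -2.64 and -2.45. Of the 16 called carriers 11 kept their direction and call under every alternative that tested them, namely Slc25a13, Slc25a11, Ucp3, Slc25a42, Slc25a30, Slc25a23, Slc25a22, Slc25a38, Slc25a28, Slc25a15 and Slc25a14. Of these 11, only Ucp3 and Slc25a30 have several tested probe sets. For the others, choosing another probe set per gene could not bring in a different tested one. Dim signal limits Slc25a17 and Slc25a14 and the 6 untested genes. The probe set that stands for the gene is of the _x_at type for Slc25a5, Slc25a39 and Slc25a29 and of the _s_at type for Slc25a26, which limits these genes.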
